A study of Mus musculus with 4 samples.

Results

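Caecal tissue of apoE knockout mice given prebiotics was set against caecal tissue of the wild-type (WT) mice whose array carries the prebiotic diet in its title. This comparison used 2 of the 4 arrays of the study, 1 array a side, chosen by their titles alone. All mice were C57Bl/6, 21 weeks old and fed a diet depleted of n-3 PUFA (n-3 polyunsaturated fatty acids). The prebiotic was Orafti P95, an oligofructose product, at 250 mg per mouse per day for the last 15 days. The knockout (KO) mice lacked apolipoprotein E, and the WT mice are not said to carry any modified allele. Each array held RNA pooled from 6 mice that had been selected on RNA quality, so the spread between mice cannot be seen and no test was made. The labels of the WT arrays conflict: title, source name and treatment give the prebiotic diet to one array, and the description field gives it to the other. Differences are therefore stated against the WT array titled with prebiotics, and a named gene or list median kept its sign against the other WT array unless the value there, or the values on all 4 arrays, are given. The differences against the 2 WT arrays share the KO prebiotic array, so they are not independent of each other. The KO array and WT array without prebiotics form a further genotype comparison that shares no array with the first.

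Apolipoprotein E sits on lipoprotein remnants and lets the liver take them up, and mice without it carry high plasma cholesterol and develop atherosclerosis. The caecum is the chamber between small and large intestine where bacteria ferment carbohydrate that was not digested upstream, and fructans such as oligofructose reach it intact. Its wall holds an epithelium of colonocytes, goblet and enteroendocrine cells, lymphoid tissue with B cell follicles, connective tissue and smooth muscle. Paneth cells, which secrete alpha-defensins and lysozyme, belong mainly to the crypts of the small intestine.

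Values are log2 units after RMA, in which a difference of 1 is a 2-fold change. The 12194 genes compared had a median difference of 0.02 between the KO and WT prebiotic arrays, with an SD across genes of 0.24, and 53.7% lay above 0. Of these genes, 18 were at least 2-fold higher in the KO (0.148% of genes compared) and 16 at least 2-fold lower (0.131%). The 18 were higher in the KO against the other WT array as well, 15 of them at least 2-fold. Of the 16 lower genes, 14 kept their sign against the other WT array, but only Cd79a, Slc1a5 and Ptprc were again at least 2-fold lower. For 13 of the 16, the WT array titled with prebiotics was the highest of the 4 arrays. The 2 genes that turned sign were a kappa light chain variable segment and the microRNA gene Mir2137, both described after their values were seen. Against the other WT array the counts were 84 higher (0.691% of genes compared there) and 24 lower (0.197%).

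**Figure D1:**
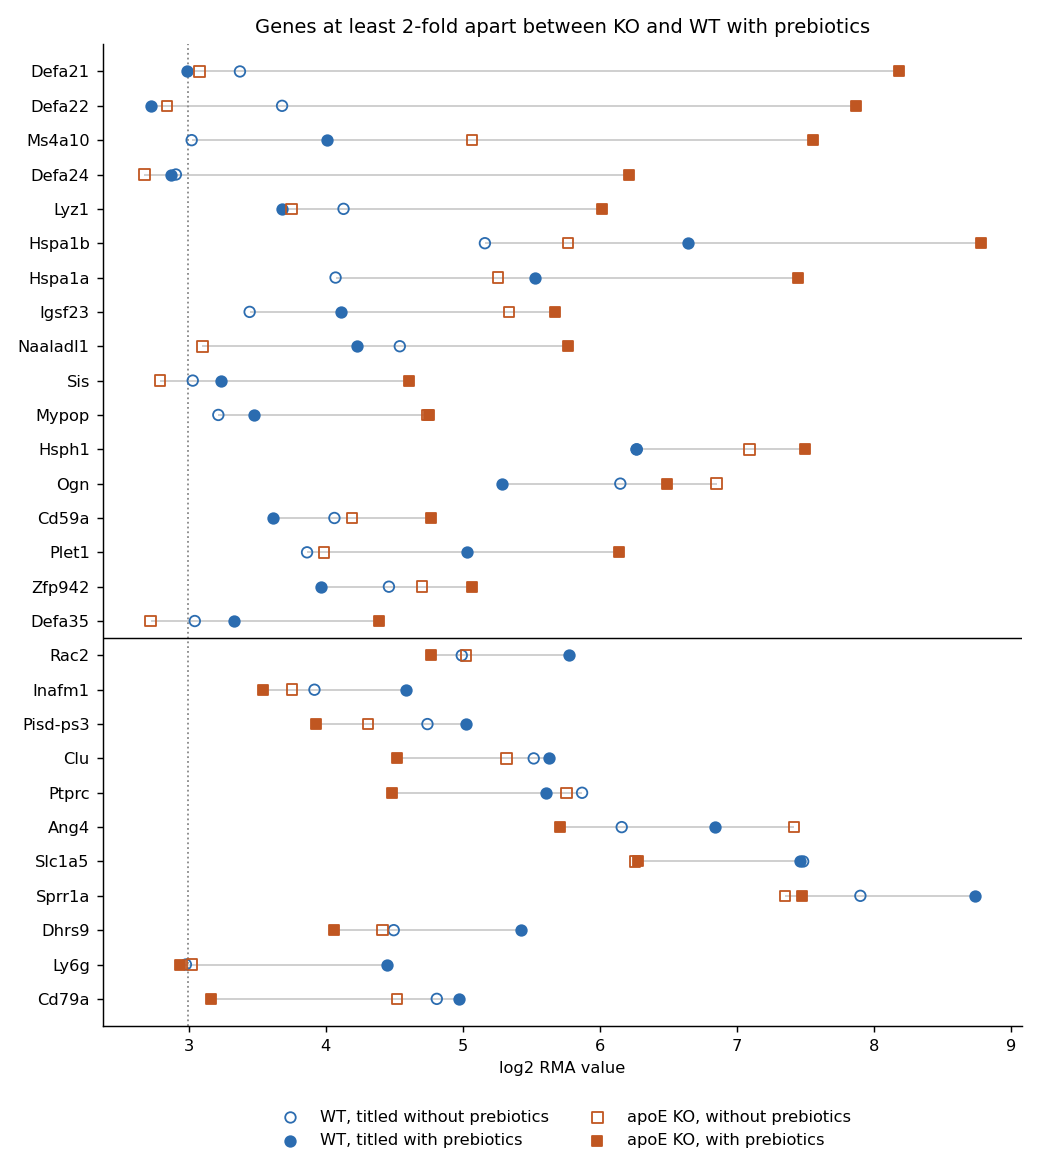
Log2 RMA value (x axis) of each gene that differed at least 2-fold between KO and WT with prebiotics, 1 symbol per array, with genes named by class such as microRNAs and immunoglobulin segments left out. Genes above the black line were higher in the KO and those below it lower; the dotted line is the filter value of 2.998, near which values are close to background, and the filled squares of Defa21, Defa22 and Defa24 stand alone at 8.18, 7.87 and 6.21.

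The array of KO mice without prebiotics against its WT partner gave an independent look at the same genes. Of the 18 genes higher in the KO with prebiotics, 11 were also higher in the KO without, where 53.9% of all genes higher in the first comparison were. Of the 16 lower genes, 11 were also lower, against 52.5%. Past 2-fold in both comparisons were Ms4a10, Hspa1a, Igsf23 and Mypop on the higher side and Slc1a5 on the lower side. The label conflict touches this comparison too. In a further subtraction, added after the data were seen, the KO array without prebiotics minus the WT array titled with them gave 1.06 for Ms4a10, 1.22 for Igsf23, 1.27 for Mypop and -1.20 for Slc1a5, but -0.27 for Hspa1a, so the place of Hspa1a here depends on the disputed label. Among all genes compared, 0.205% were 2-fold higher and 0.131% 2-fold lower in the comparison without prebiotics. The 7 higher genes that did not keep their sign were Defa21, Defa22, Defa24, Defa35, Lyz1, Sis and Naaladl1, products of Paneth cells or of the enterocyte brush border. This set depends on the disputed label too. In the further subtraction Defa21, Defa22 and Lyz1 were at 0.09, 0.12 and 0.07, while Defa24, Defa35, Sis and Naaladl1 stayed lower in the KO. Hspa1b and Plet1 then lost their sign, at -0.87 and -1.04. The defensin values without prebiotics lie near background. Both KO arrays lay above both WT arrays for 8 of the 18 (16.3% of all genes) and below them for 9 of the 16 (14.0%). The arrays that chose these genes are part of that last count.

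**Figure D2:**
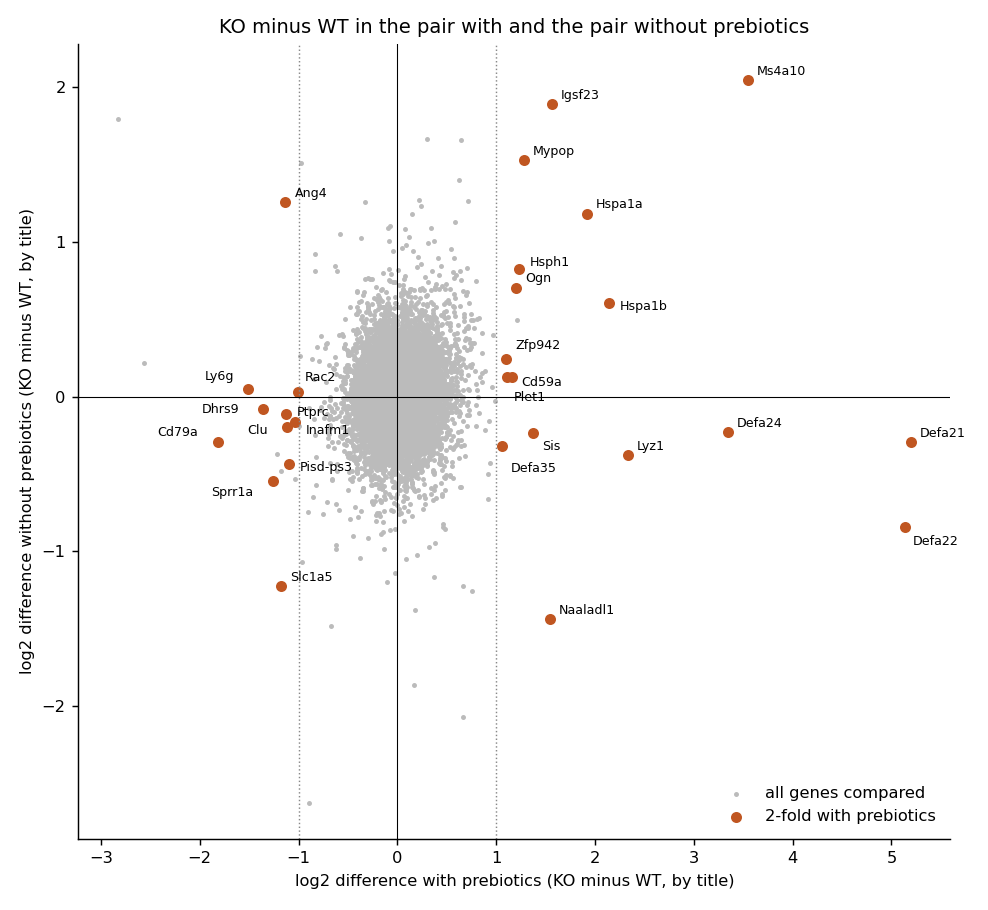
Log2 difference KO minus WT with prebiotics (x axis) against the same difference without prebiotics (y axis), for all genes compared in grey and the 2-fold genes that are named in orange; dotted lines mark 2-fold on the x axis. The 2 axes share no array: Ms4a10, Hspa1a, Igsf23 and Mypop sit high on both, Slc1a5 low on both, and the alpha-defensins, Lyz1, Sis and Naaladl1 high on the x axis only.

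Apoe, the gene removed, had 4.09 on the WT prebiotic array and 3.13 on the KO prebiotic array, a difference of -0.97. On the other WT array it had 3.90 and on the other KO array 2.83. Neither KO value reached a WT value, as the genotype labels imply. The sources used here do not place its probe set relative to the deletion. The defining genes of large intestinal epithelium were strongly present: Car1 had 12.48 in WT and 12.52 in KO, Slc26a3 11.68 and 11.72, and Guca2a 11.81 and 11.82. The 11 general epithelial markers that passed the filter lay between -0.35 and 0.21, with a median of 0.02. Of 23 small intestinal enterocyte markers on the array, 18 passed the filter. Fabp2 had 11.68 in WT and 11.66 in KO and Mgam 9.54 and 9.59, whereas Lct, Gata4 and Cyp3a11 were below the filter value on all 4 arrays. The 1 red cell marker on the array, Slc4a1, did not pass the filter.

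Paneth cell products showed the 2 largest differences of the comparison. Defa21 had values of 3.37 and 2.98 on the WT arrays without and with prebiotics, 3.08 on the KO array without and 8.18 on the KO array with them. Defa22 had 3.68, 2.72, 2.84 and 7.87 in the same order, and Defa24 had 2.91, 2.87, 2.68 and 6.21. Lyz1, the lysozyme of Paneth cells, had 4.13, 3.68, 3.75 and 6.02. For each of these 4 genes the KO prebiotic array stood above the other 3. Those 3 spanned less than 1 log2 unit, near the filter value for the defensins and above it for Lyz1. The differences against the WT prebiotic array were 5.20 for Defa21, 5.14 for Defa22, 3.34 for Defa24 and 2.33 for Lyz1, and against the other WT array 4.81, 4.19, 3.31 and 1.89. Because the low side lies at background for the defensins, the sizes are approximate: with values below the array median set to it, the differences were 5.17, 4.85 and 3.20.

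Alpha-defensin genes form a family of closely related copies, and the sequences before the start sites of Defa21 and Defa22 are shown because they coincide. The RefSeq bases 100 to 1 before each start, on the plus strand of GRCm38.p6 at chr8:21025445-21025544 for Defa21 and chr8:21162177-21162276 for Defa22, were identical at 100 of 100 positions. Capitals mark the letters TATAAA, which 13.6% of all promoters in the table hold on either strand.
Defa21: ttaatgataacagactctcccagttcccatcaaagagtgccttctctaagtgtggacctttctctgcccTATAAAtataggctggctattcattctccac
Defa22: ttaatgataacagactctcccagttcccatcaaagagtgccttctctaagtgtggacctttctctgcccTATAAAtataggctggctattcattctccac
Probe and transcript sequences were not compared, and how far a probe set of one copy reads another was not tested. Among the 10 probe sets assigned to 1 alpha-defensin each, 4 were at least 2-fold higher in the KO, the fourth being Defa35 at 1.06, which lies outside the naming rule. Another 4 came from the 9 probe sets shared by several alpha-defensins, with differences of 2.85, 2.79, 1.45 and 1.41. Defa34, also outside the naming rule, was lower in the KO, at -0.38, and at -0.31 against the other WT array. It had 4.08 and 4.15 in WT without and with prebiotics and 3.04 and 3.77 in KO.

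Not every Paneth gene followed. Of 18 listed, 11 had a probe set of their own and 9 passed the filter. Of these, 6 passed only through the KO prebiotic array, so their sign was fixed by the filter and no count or median over the 9 is read. Ang4, an antimicrobial ribonuclease of Paneth and goblet cells, went the other way. It had 6.84 in the WT and 5.71 in the KO with prebiotics, a difference of -1.13, but 6.16 and 7.42 without them. Mptx2 differed by 0.67, Itln1 by 0.41 and Mmp7, the protease that activates defensins, by 0.22, all from values near background. Nupr1 differed by -0.05, and by 0.12 against the other WT array. Over all 11 members on the array, without the filter, the median was 0.41, and 0.20 against the other WT array.

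Genes of small intestinal enterocytes were also higher in the KO. Sucrase-isomaltase (Sis), the brush border sugar hydrolase, had 3.03 and 3.23 on the WT arrays without and with prebiotics, 2.79 in the KO without and 4.61 in the KO with them. Naaladl1, a peptidase of the same membrane, had 4.54, 4.23, 3.10 and 5.77. The KO prebiotic array was the highest and the other KO array the lowest for both. Aminopeptidase N (Anpep) differed by 0.82, the retinol-binding protein Rbp2 by 0.91, with -0.04 against the other WT array, and the lipoprotein assembly protein Mttp by 0.45. Of 18 members compared, 17 were above 0, with a median of 0.18, and 2 were 2-fold; 2 others, near background, passed only through the KO array. Without prebiotics only 5 of the 18 were above 0, with a median of -0.12. The mean of the list was 5.86 and 6.24 on the WT and KO prebiotic arrays and 5.47 and 5.26 on the other WT and KO arrays. In bulk tissue, more cells of a type and more RNA per cell cannot be told apart, and whether the pooled tissue held a different share of ileal wall was not tested.

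Cytosolic heat shock chaperones, which refold proteins and are switched on by heat shock factor 1, held 3 of the 18 higher genes. Hspa1b had 5.16 and 6.64 on the WT arrays without and with prebiotics, 5.77 in the KO without and 8.78 in the KO with them. Hspa1a had 4.07, 5.52, 5.25 and 7.44, and Hsph1, a nucleotide exchange factor for the former, had 6.27, 6.26, 7.09 and 7.50. On the KO prebiotic array all 3 stood above the other arrays, with differences of 2.14, 1.92 and 1.23. For Hsph1 both KO arrays lay above both WT arrays. For Hspa1a and Hspa1b the KO array without prebiotics lay below the WT array titled with them. Chordc1, an HSP90 co-chaperone, differed by 0.69, Hspa4l by 0.42 and the co-chaperone Bag3 by 0.34. Of 19 members, 17 were above 0, but the median was 0.12, and against the other WT array 9 were above 0 with a median of -0.01. The list also holds the mitochondrial chaperonins Hspd1 and Hspe1 and the transcription factor Hsf2, which are not cytosolic chaperones. The 2 members below 0 were Hspd1 and Hsf2, each at -0.01. Hspa8, the abundant constitutive member, differed by 0.24, and Hsp90aa1 by 0.07, with -0.22 against the other WT array.

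The bases before the start sites of these 3 genes are shown because heat shock factors bind inverted GAA repeats. Capitals mark GAANNTTC or TTCNNGAA, each of which reads as the same motif on both strands. The Hspa1a and Hspa1b stretches run from 150 to 51 bases before the start (chr17:34972207-34972306 and chr17:34959289-34959388, minus strand) and the Hsph1 stretch from 100 to 1 (chr5:149636337-149636436, minus strand), all from RefSeq on GRCm38.p6.
Hspa1a: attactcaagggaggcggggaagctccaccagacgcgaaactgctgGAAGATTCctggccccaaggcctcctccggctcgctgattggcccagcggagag
Hspa1b: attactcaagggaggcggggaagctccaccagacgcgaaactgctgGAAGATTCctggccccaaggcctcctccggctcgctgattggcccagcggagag
Hsph1: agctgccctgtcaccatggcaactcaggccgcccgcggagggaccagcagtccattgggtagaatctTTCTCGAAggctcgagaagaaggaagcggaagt
The Hspa1a and Hspa1b stretches were identical at 100 of 100 positions, which says nothing of the transcripts the probes read; whether either probe set reads both genes was not tested. In the window from 250 bases before to 50 after the start, the 3 genes each held the motif. Of 18 genes of the chaperone list with a promoter in the table, 12 held it in at least 1 of their promoters. The mitochondrial Hspd1 and Hspe1 were among the 12, and Hsf2 was not. Counted per promoter, 15.1% of all 32851, which belong to 27025 genes, held the motif. The share of the chaperone list is per gene and that of all promoters is not, so they are not directly comparable. A match describes the letters and does not show binding.

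**Figure D3:**
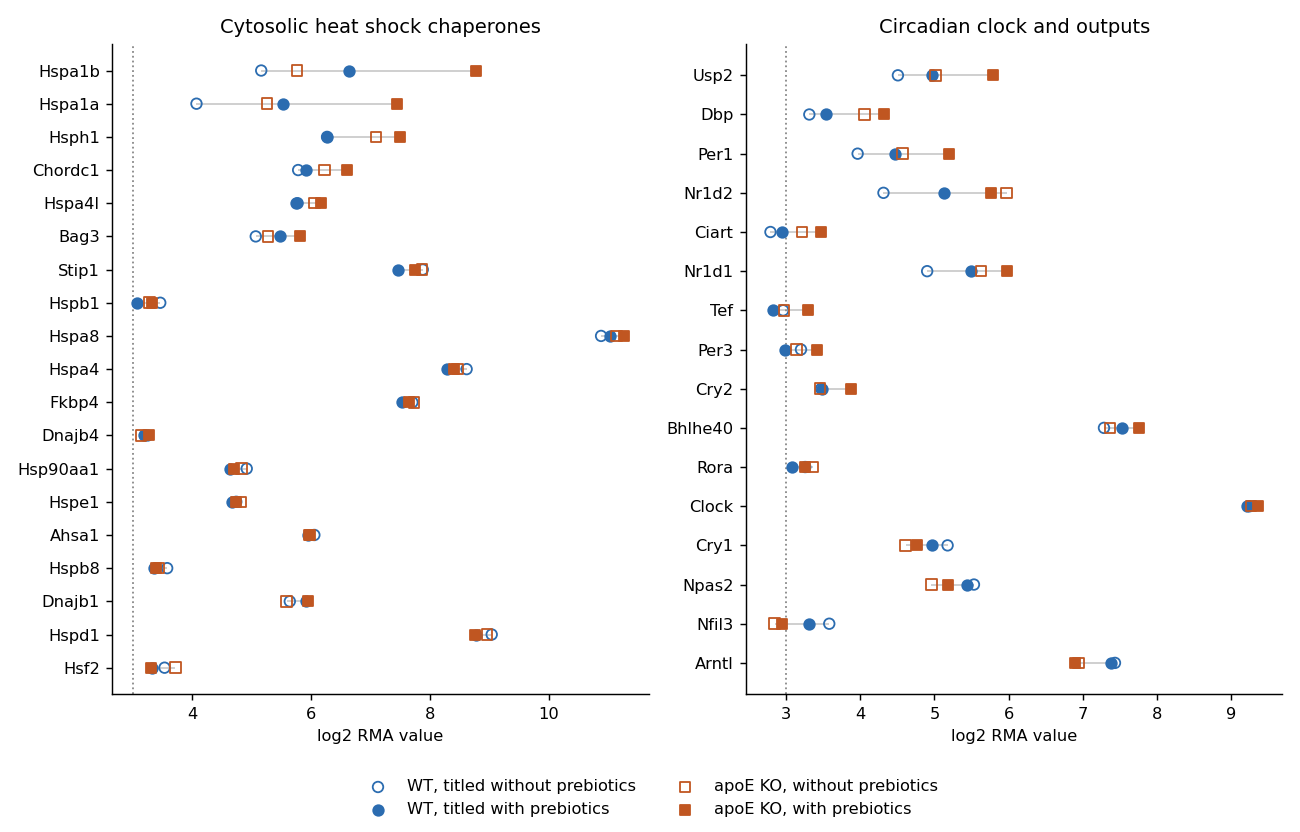
Log2 RMA value (x axis) of the cytosolic chaperone list (left) and of the clock genes and clock outputs (right) that passed the filter. Each array has 1 symbol, and genes are ordered by the difference KO minus WT with prebiotics. The chaperone list includes Hspd1, Hspe1 and Hsf2, which are not cytosolic chaperones. The dotted line is the filter value. The filled squares of Hspa1b, Hspa1a and Hsph1 lie to the right at 8.78, 7.44 and 7.50, and at the foot of the right panel both KO squares of Arntl, at 6.95 and 6.90, lie left of both WT circles.

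Among clock genes, Dbp, Per1 and the Nr1d repressors were higher in the KO and the activators Arntl and Npas2 lower, though none was 2-fold and the activator Clock was at 0.15. Dbp, a clock output factor, had 3.31 and 3.53 on the WT arrays without and with prebiotics and 4.06 and 4.32 on the KO arrays. Nr1d2, a repressor of Arntl, had 4.31 and 5.12 in WT and 5.97 and 5.76 in KO. Arntl (BMAL1), the core activator, had 7.44 and 7.39 in WT and 6.95 and 6.90 in KO. For these 3 genes the WT and KO arrays did not overlap. Over all genes compared, both KO arrays lay above both WT arrays for 16.3% and below them for 14.0%. With prebiotics, Usp2 differed by 0.82, Dbp by 0.79, Per1 by 0.73, Nr1d2 by 0.64, Ciart by 0.53 and Nr1d1 by 0.50. Arntl differed by -0.49, Nfil3 by -0.36 and Npas2, which can stand in for CLOCK, by -0.25 and the repressor Cry1 by -0.21. Of 16 members, 12 were above 0 with a median of 0.41, and 16 of 16 kept their sign against the other WT array. Both differences share the KO prebiotic array, and the share of all genes that kept their sign was not counted. Of the 16, 4 passed the filter through 1 of the 2 arrays alone; without the filter 12 of 18 were above 0 with a median of 0.31. Without prebiotics 10 of 16 were above 0, with a median of 0.05. Collection times are not given in the labels, and their part in the result was not tested.

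Igsf23, Mypop and Slc1a5, which lie on the same chromosome as Apoe, were past 2-fold in both genotype comparisons. Igsf23, of the immunoglobulin superfamily, had 3.44 and 4.11 in WT without and with prebiotics and 5.34 and 5.68 in KO. Mypop, a Myb-related repressor, had 3.22 and 3.47 in WT and 4.74 and 4.76 in KO. Slc1a5, a glutamine transporter, had 7.48 and 7.46 in WT and 6.26 and 6.28 in KO. With prebiotics the differences were 1.56, 1.28 and -1.18, and against the other WT array 2.23, 1.54 and -1.20. The other 2 probe sets of Mypop differed by -0.17 and 0.22, and the mean over its 3 probe sets was 0.445. The second probe set of Slc1a5 was below the filter value on all 4 arrays. In the RefSeq gene order of GRCm38.p6, Igsf23 and Mypop lie within 60 places of Apoe, and Slc1a5 lies 123 places away. Of 44 genes compared in that window, 8, Apoe included, differed at least 1.5-fold, against 1.98% of all genes. Among them was Apoc2, an activator of lipoprotein lipase encoded in the same gene cluster as Apoe, at 0.73, and at 1.53 against the other WT array. Ceacam20, an epithelial adhesion protein, was at -0.91, though at -0.16 against the other WT array. Pglyrp1 was at -0.70 and Nlrp9b at -0.62, but at 0.10 and -0.06 against the other WT array. The count of 8 holds for the WT array titled with prebiotics and depends on the disputed label. The median size of the difference was 0.24 in the window and 0.13 over all genes.

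**Figure D4:**
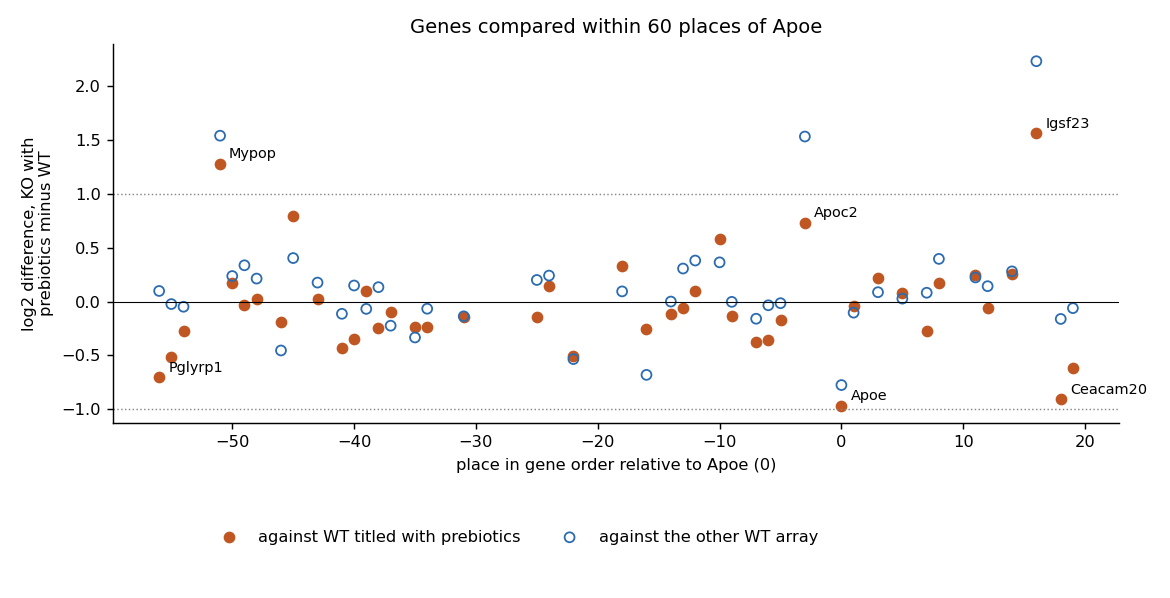
Log2 difference of KO with prebiotics minus WT (y axis) for the 44 genes compared within 60 places of Apoe, by place in gene order (x axis, Apoe at 0), against the WT array titled with prebiotics (filled) and the other WT array (open); dotted lines mark 2-fold. Mypop and Igsf23 lie past 2-fold at 1.28 and 1.56, and Apoe lies at -0.97.

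The remaining higher genes had no shared list. Ms4a10, of the membrane-spanning 4A family, was 11.7-fold higher, with 3.02 and 4.01 in WT without and with prebiotics and 5.07 and 7.55 in KO. The WT and KO arrays did not overlap. Plet1, an epithelial surface protein, had 3.86 and 5.03 in WT and 3.99 and 6.14 in KO, so each prebiotic array stood above its partner. Osteoglycin (Ogn), a matrix proteoglycan, had 6.15 and 5.29 in WT and 6.85 and 6.49 in KO. Cd59a, which blocks the complement membrane attack complex, had 4.06 and 3.61 in WT and 4.19 and 4.77 in KO. For Ogn and Cd59a the difference with prebiotics, 1.20 and 1.16, was larger than that against the other WT array, 0.34 and 0.71. The zinc finger gene Zfp942, outside the naming rule, differed by 1.10, and a microRNA gene completed the 18.

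The B cell receptor chains were lower in the KO with prebiotics. Cd79a, a signalling chain of the B cell receptor, had 4.81 and 4.97 in WT without and with prebiotics and 4.52 and 3.16 in KO. Its partner Cd79b had 3.40 and 3.45 in WT and 3.66 and 2.47 in KO. The KO prebiotic array was the lowest for both, and the other 3 arrays lay close together. Ms4a1 (CD20) differed by -0.65, the inhibitory receptor Cd22 by -0.48, the B cell identity factor Pax5 by -0.44 and the kinase Blk by -0.36. Of 9 members that passed the filter, 7 were below its value on the KO prebiotic array and passed only through the WT array, so their lower sign was fixed by the filter and the count is not read. Over all 10 members on the array, without the filter, 10 were lower with a median of -0.40, and 10 were lower against the other WT array with a median of -0.55. Without prebiotics 6 of the 10 were lower, with a median of -0.03. The KO values lie near background, so the sizes are approximate.

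Other leukocyte genes were lower in part. Ptprc (CD45), the phosphatase on all leukocytes, had 5.87 and 5.61 in WT and 5.76 and 4.48 in KO, a difference of -1.13. The MHC class II genes, which B cells and other presenting cells use to show peptides to T cells, were lower in 8 of the 10 on the array without the filter (median -0.29, and -0.15 against the other WT array), and in 5 of 10 without prebiotics. H2-DMb2 differed by -0.62 and H2-Eb1 by -0.53; of the 9 members that passed the filter, 3 passed only through the WT array. The T cell list held 6 measurable genes, 4 of them lower, with a median of -0.11 that became 0.03 against the other WT array. Of the 6, 2 passed only through the WT array, so their lower sign was fixed by the filter. Over all 12 T cell members on the array, without the filter, 9 were lower (median -0.09). Against the other WT array 4 of the 12 were lower (median 0.01). Rac2, a GTPase of blood cells, differed by -1.01 but by -0.22 against the other WT array. Ly6g, a neutrophil surface protein, had 4.45 on the WT prebiotic array and between 2.94 and 3.03 on the other 3 arrays, so its difference of -1.51 came from that array alone. Among kappa light chain variable segments, described after their values were seen, one had 8.86 and 10.60 in WT and 9.08 and 8.04 in KO, and another had 4.22 and 7.74 in WT and 6.02 and 4.92 in KO. Both were highest on the WT prebiotic array. Plasma cell genes that passed the filter were split evenly, 3 above and 3 below 0, with the joining chain Jchain at -0.51. Against the other WT array 5 of 6 were higher (median 0.22), and Jchain was at 0.19. Of the 6, 1 passed only through the WT array, so its lower sign was fixed by the filter. Over all 9 plasma cell members on the array, without the filter, 6 were higher (median 0.03). Against the other WT array 7 of the 9 were higher (median 0.19).

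The lower genes outside the lymphoid lists were mostly high on the WT prebiotic array. Sprr1a, a cornified envelope protein, had 7.90 and 8.74 in WT without and with prebiotics and 7.35 and 7.48 in KO. Dhrs9, a retinol dehydrogenase, had 4.50 and 5.42 in WT and 4.41 and 4.06 in KO. Clusterin (Clu), a secreted chaperone also known as apolipoprotein J, had 5.52 and 5.63 in WT and 5.32 and 4.52 in KO, a difference of -1.11 and, against the other WT array, just short of 2-fold. The pseudogene Pisd-ps3 differed by -1.10 and Inafm1 by -1.04. For each of these 5 genes the KO values were below the lower WT value, as for 14.0% of all genes compared. The arrays that chose the 5 genes are part of that count. The small nucleolar RNA Rnu3a differed by -0.90 with prebiotics, by -3.30 against the other WT array and by -2.63 in the comparison without prebiotics.

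Genes of the gut wall were mostly higher in the KO. Smooth muscle genes were higher in the KO in 14 of 14 members (median 0.37), with the thin filament protein calponin (Cnn1) and the intermediate filament desmin (Des) both at 0.75, Synm at 0.56 and Synpo2 at 0.54. Myh11, the smooth muscle myosin, had 9.90 and 9.38 in WT and 10.10 and 9.79 in KO. Against the other WT array the median was 0.08 with 9 of 14 higher, and Synpo2 was at -0.35. Without prebiotics 14 of 14 were again higher (median 0.20). Fibroblast and matrix genes were higher in 12 of 14 (median 0.25), led by decorin (Dcn) and fibronectin (Fn1), both at 0.71, and Dpt at 0.58, and in 14 of 14 without prebiotics (median 0.35). Decorin had 7.77 and 8.02 in WT and 8.60 and 8.73 in KO. Macrophage genes were higher in 13 of 15 (median 0.14), with the folate receptor Folr2 at 0.76, the surface receptor Adgre1 at 0.41 and the mannose receptor Mrc1 at 0.30. Folr2 and Cd163 passed only through the KO array, so their higher sign was fixed by the filter and their sizes rest on values near background. All 15 macrophage members on the array passed, so the count and median are the same without the filter. Mrc1 had 3.59 and 4.91 in WT and 5.26 and 5.21 in KO, so its size rested on which WT array was used, 1.63 against the other. None of these 43 genes was 2-fold higher.

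**Figure D5:**
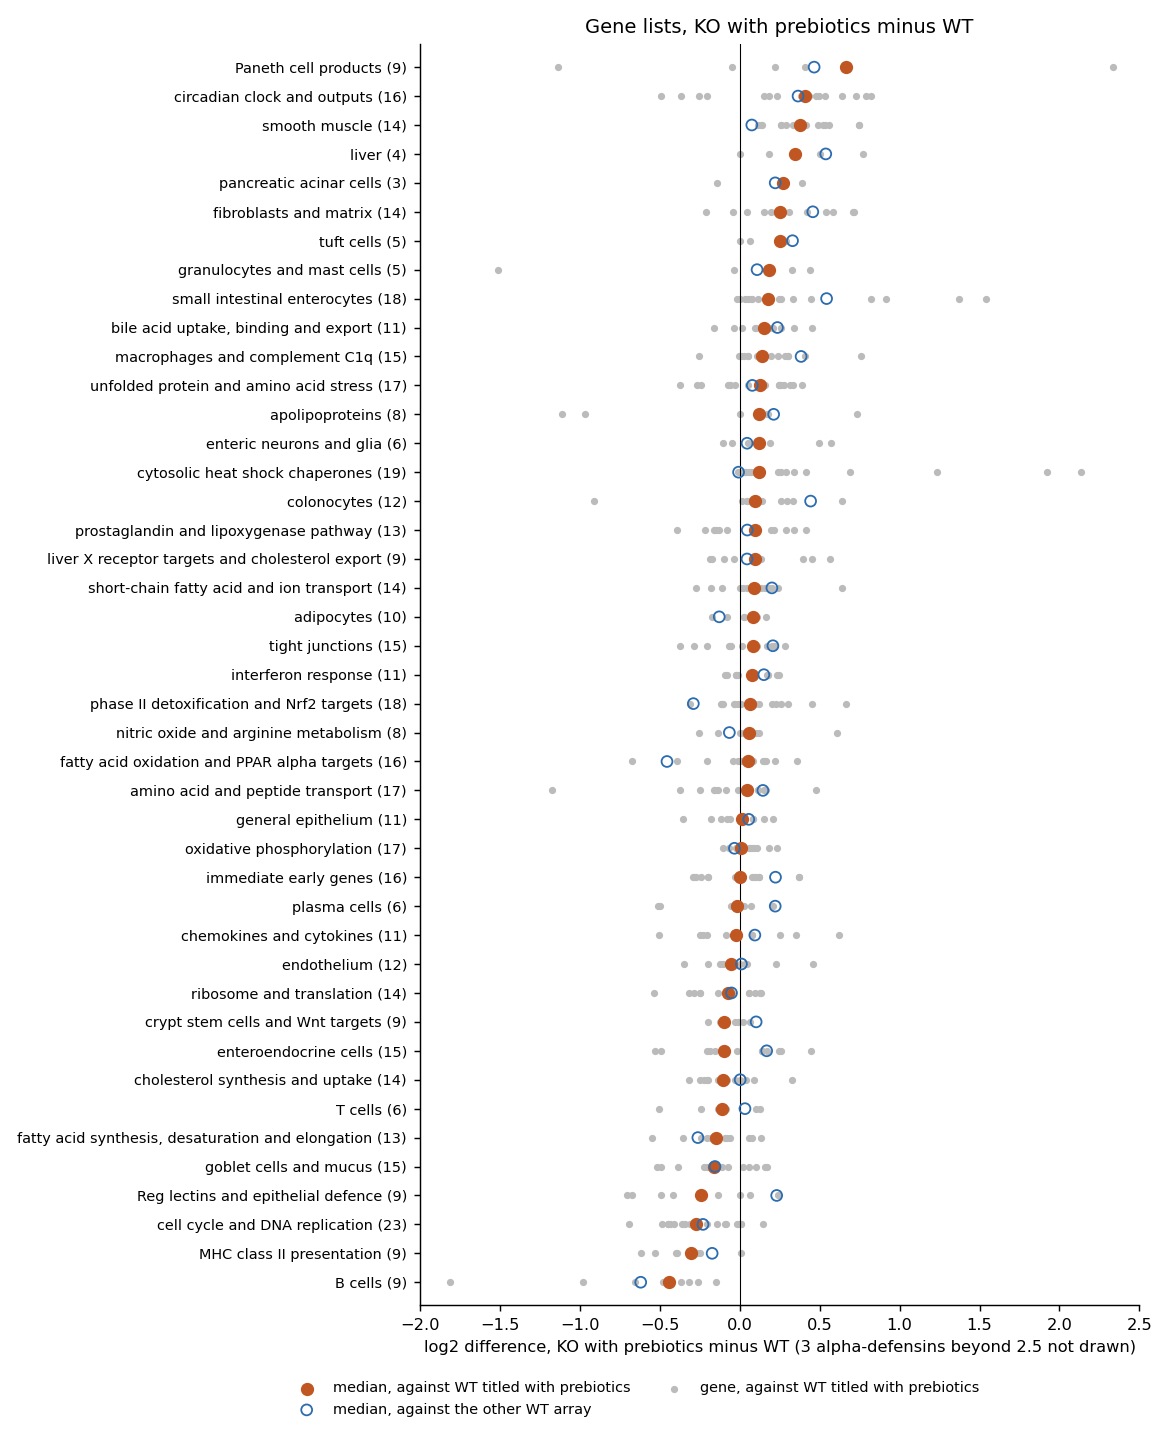
Log2 difference of KO with prebiotics minus WT (x axis) for 43 gene lists, ordered by median, with the number of genes compared in brackets: grey dots are genes, filled circles list medians against the WT array titled with prebiotics, open circles medians against the other WT array; 3 alpha-defensins lie beyond the axis. The B cell median, over members whose sign the filter mostly fixed, lies at -0.44, and the open circle of fatty acid oxidation lies at -0.45 while its filled circle lies at 0.05.

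Cell cycle genes were lower in the KO with prebiotics in 20 of 23 members (median -0.27), in 22 of 23 against the other WT array (median -0.23) and in 18 of 23 without prebiotics (median -0.16). Cdc20, which activates the anaphase complex, had 5.94 and 6.30 in WT and 5.73 and 5.61 in KO. The mitotic kinase Plk1 differed by -0.48, the replication helicase subunits Mcm2 and Mcm3 by -0.45 and -0.41, and Aurka by -0.43. Mki67, the usual proliferation marker, differed by 0.01, and by -0.27 against the other WT array. Goblet cell genes were lower in 10 of 15 (median -0.16), with the disulphide isomerase Agr2 at -0.52 and the resistin-like secreted protein Retnlb at -0.49. Stem cell and Wnt target genes had a median of -0.10 that became 0.10 against the other WT array, with Lgr5 at -0.10 and 0.31.

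For 14 of the 43 lists the median over genes that passed the filter changed sign between the WT arrays. The lists of fatty acid oxidation and phase II detoxification were among them. Those of fatty acid synthesis and of liver X receptor targets were not. Fatty acid oxidation genes, targets of PPAR alpha, were near zero against the WT prebiotic array (11 of 16 higher, median 0.05) and lower in 16 of 16 against the other WT array (median -0.45). Pdk4, which restrains glucose oxidation, had 7.51 and 5.97 in WT and 6.94 and 6.05 in KO, and Angptl4, an inhibitor of lipoprotein lipase, had 5.73 and 3.71 in WT and 3.86 and 3.87 in KO. Only Acot1, an acyl-CoA thioesterase, had KO values (3.99 and 3.41) below both WT values (5.47 and 4.08) among these 3. Genes of phase II detoxification had medians of 0.07 and -0.29, with haem oxygenase (Hmox1) at 0.66 and -1.30. Reg lectins and epithelial defence genes had medians of -0.24 and 0.23: Reg3g, a bactericidal lectin, had 3.71 and 5.53 in WT and 3.63 and 4.86 in KO, and Reg3b had 4.17 and 6.64 in WT and 3.18 and 6.51 in KO.

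Bile acid genes differed little between the prebiotic arrays. The uptake transporter Slc10a2 had 7.84 in WT and 8.03 in KO, against 5.21 and 5.34 on the arrays without prebiotics, and the exporter subunit Slc51a had 6.96 and 7.17 against 6.05 and 6.05. The list median was 0.15, with 9 of 11 above 0 and none 2-fold. The canalicular-type exporter Abcc2 differed by 0.45 and the prostaglandin carrier Slco2a1 by 0.34. Colonocyte genes were above 0 in 11 of 12 by small amounts (median 0.10, and 0.44 against the other WT array), with the sodium exchanger Slc9a3 at 0.64. Slc9a3 had 8.07 and 8.63 in WT and 8.82 and 9.27 in KO, without overlap. Of the short-chain fatty acid and ion transport list 11 of 14 were above 0 (median 0.09). Enteroendocrine genes had a median of -0.10 that became 0.17 against the other WT array. Of these genes, 2 passed only through the WT array, so their lower sign was fixed by the filter. Without the filter the medians were -0.10 and, against the other WT array, -0.01, so the change of sign is not read. Peptide YY (Pyy) was at -0.53 and, against the other, at 0.40, secretin (Sct) at -0.49 and cholecystokinin (Cck) at 0.45. Amino acid and peptide transporters other than Slc1a5 lay between -0.37 and 0.48.

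Lipid handling genes tied to apolipoprotein E differed little. Liver X receptor targets had a median of 0.09, with the phospholipid transfer protein Pltp at 0.57 and the cholesterol exporter Abca1 at 0.40. Pltp had 5.11 and 5.39 in WT and 6.00 and 5.96 in KO, without overlap. Genes of cholesterol synthesis and uptake were lower in 10 of 14 (median -0.10) but in 7 of 14 against the other WT array (median 0.00), with Fdps at -0.32 and -0.38. Genes of fatty acid synthesis and desaturation were lower in 10 of 13 (median -0.15), with the desaturases Fads2 and Fads1, which act on dietary polyunsaturated fatty acids, at -0.55 and -0.35. Apoa4 differed by 0.18 with prebiotics and by -1.38 in the comparison without. The nitric oxide and arginine list is relevant to the endothelial question in the study's title. Its median was 0.06, and -0.06 against the other WT array, with the arginase Arg2 at 0.61 and -0.15. In this list 1 member passed only through the KO array. Without the filter its medians were -0.04 and -0.06, so the change of sign is not read. Endothelial markers had medians of -0.05 and 0.01, and of -0.07 and -0.01 without the filter.

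The other lists stayed close to the median of all genes. Medians lay at 0.00 for immediate early genes, 0.01 for oxidative phosphorylation, 0.08 for interferon response and for tight junctions, 0.10 for the prostaglandin list, 0.13 for unfolded protein stress, -0.02 for chemokines and cytokines and -0.07 for ribosome and translation. None of their members was 2-fold. Without the filter the prostaglandin median was -0.03, and 0.01 against the other WT array. Against the other WT array the medians of oxidative phosphorylation and of chemokines and cytokines turned to -0.03 and 0.10. Adipocyte genes had a median of 0.09 and -0.13 against the other WT array, with Fabp4 at -0.17 and -1.56. The lists of tuft cells (5 genes, median 0.25), enteric neurons and glia (6 genes, 0.12), granulocytes and mast cells (5 genes, 0.18), pancreatic acinar cells (3 genes, 0.27) and liver (4 genes, 0.35) rested on few measurable genes. Each held members that passed only through the KO array, so their higher sign was fixed by the filter. Without the filter the medians were 0.07, -0.04, -0.003, -0.03 and 0.04 in the same order, so the filtered medians are not read.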

How the data were processed

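RNA of 6 mice per group was pooled, and 100 ng was labelled per Affymetrix array, per the labels' protocols. The authors deposited 1 RMA value per probe set, read here as log2 from its range. Affymetrix Expression Console is named per the submitters' processing notes; its version, the log base and the genome build are not given in the sources used here. RMA aligns array distributions and compresses differences near background, and the number of arrays limits the precision. Medians of all 41345 probe sets lay between 2.92 and 2.93.

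Of these probe sets, 23521 name 1 gene, 1814 several and 16010 none. The probe set with the highest mean stood for each of 22180 genes (1082 had several). A gene was compared if it reached 2.998, the median of the probe sets naming 1 gene, on either array. RefSeq (GRCm38.p6) held 99.2% of the gene identifiers. Differences are plain subtractions without a test, computed in Python 3.11.15; counts were checked on simulated data. Named were Apoe, the 15 largest differences each way that kept their sign against the other WT array, up to 5 each way that turned sign, and up to 6 members of each list; predicted genes, microRNAs and receptor segments were counted. Added after their values were seen were Zfp942, Defa35, Mir2137, the 2 light chain segments and the list members Car1, Slc26a3, Guca2a, Itln1, Mmp7, Nupr1, Hspa8, Hsp90aa1, Arntl, Nfil3, Npas2, Cry1, Myh11, Mki67, Pdk4, Reg3b, Fabp2, Mgam, Lct, Gata4, Cyp3a11, Slc4a1 and Clock. Defa34, Nlrp9b, Hspd1, Hspe1 and Hsf2 were also added after their values were seen. The members and the 44 lists were chosen with earlier results of these data known. Alternatives, among them cyclic loess in limma 3.58.1, are in the closing section.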

Additional observations from a re-analysis of the deposited data

Results flagged for a closer look

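Opposite differences of at least 2-fold in the comparisons with and without prebiotics marked 3 genes. Naaladl1 differed between KO and WT by 1.54 with prebiotics and by -1.44 without. Ang4 differed by -1.13 with and 1.26 without, and a kappa light chain variable segment by -2.83 with and 1.79 without. These values follow the titles of the WT arrays. With the 2 WT arrays exchanged, Naaladl1 differed by 1.23 with and -1.13 without, and Ang4 by -0.45 and 0.57. The light chain segment then differed by 0.70 and -1.73, with both signs turned. Only Naaladl1 was opposite by at least 2-fold under either labelling. With 1 array per group the difference between the comparisons was not tested.

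Probe sets without a gene name were outside the comparisons. Of 7282 that passed the same filter, 236 (3.24%) were at least 2-fold higher in the KO with prebiotics and 121 (1.66%) at least 2-fold lower, against 0.142% each way among the probe sets with 1 gene name. Against the other WT array, 207 of the 236 and 83 of the 121 kept their sign, and without prebiotics 135 and 53 did. What these probe sets measure was not tested.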

How the results depend on the processing

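The WT array used was the choice that moved the counts. Against the other WT array, which the description field gives the prebiotic diet, 84 genes were at least 2-fold higher and 24 lower, of which 77 and 17 kept their sign against the WT array titled with prebiotics; 15 and 3 were among the genes of the report. A kappa light chain segment (0.695) and Mir2137 (0.027) turned sign; the cause was not tested. No other alternative moved the counts of 18, 16, 18 and 14 by 1.5 times: dropping the filter or raising it to percentile 75, averaging a gene's probe sets, cyclic loess and a floor at the array median gave 17 to 18 genes higher and 15 to 18 lower. The list median for Paneth cell products was 2.84 with the stricter filter and 0.26 with the floor. Without the filter it was 0.41, and the medians of pancreatic acinar cells and liver fell to -0.03 and 0.04. Other medians turned sign without the filter, among them the prostaglandin list at -0.03, nitric oxide and arginine at -0.04 and plasma cells at 0.03. No paired analysis was possible because each group is 1 array. Signals near background limit the sizes for the alpha-defensins and the B cell genes.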
